A study of Mus musculus with 6 samples.

Results

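The genes of the urea cycle and of amino acid breakdown were examined in livers of E14.5 mouse embryos. The list held 37 genes chosen by name: 6 of the urea cycle, 10 of methionine and betaine metabolism, 8 of aromatic amino acid breakdown and 13 of other amino acids. Each was taken from the probe set whose annotation names that gene alone, and where there were several the one with the highest mean over all 6 arrays was kept. This gave 33 measured members among 19938 measured genes. Ass1 and Ahcy lie only on probe sets shared with another gene, and Gls2 and Sds are not named in the annotation used, so these 4 were not analysed here.

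The samples were 3 livers of Tmod3-/- embryos, whose labels give a small fetal liver and anemia, and 3 livers of Tmod3+/+ embryos labelled normal. All were of strain C57BL/6J and came from independent embryos. Tmod3 encodes tropomodulin 3, which caps the pointed ends of actin filaments. Each total RNA was hybridised to 1 Affymetrix MoGene-1_0-st-v1 array, and levels are given on the log2 scale of the deposited values. The sources used here do not say which part of Tmod3 is disrupted. Tmod3 itself read 1.32, 2.36 and 1.30 in knockout replicates 1, 2 and 3 and 4.49 to 4.90 in the wild type arrays, so that each array matched its label. Knockout replicate 3 stood apart in its hepatocyte markers, with a mean level of 5.62 where the other 5 arrays had 6.45 to 6.91. Upper quantiles also differed between arrays, with a 90th percentile over all probe sets of 3.67, 3.82 and 3.68 in knockout replicates and 3.68, 4.07 and 4.13 in wild type replicates, so that bright genes read lower in general in knockout liver and in wild type replicate 1.

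The urea cycle turns ammonia released from amino acids into urea, and it runs mainly in hepatocytes. The same cells hold most of the enzymes that take methionine, tyrosine, tryptophan, histidine, proline and glycine apart. In the fetus the liver is also the main site of red cell formation, so that hepatocytes are only part of the tissue, and several of these enzymes are known to reach high levels only late in gestation or after birth.

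None of the 33 members passed the threshold of 0.05 on the p adjusted over all 19938 genes (limma, Benjamini-Hochberg), and 9 lower and 2 higher members had an unadjusted p under 0.05. The largest differences were those of Bhmt (by its brightest probe set), Kynu and Otc, whose levels were lower in knockout liver. Fewer hepatocytes and less RNA per hepatocyte cannot be told apart in bulk tissue. Over all genes, 3 passed, Tmod3 among them, which is 0.015%, and the unadjusted p was under 0.05 and lower in 6.44% and higher in 2.59%. In 10 members the 3 knockout arrays lay below the 3 wild type arrays without overlap, against 7.1% of all genes, and in 1 member they lay above, against 6.14%. The median log2 fold change (knockout minus wild type) was -0.11 over the members and 0.01 over all genes. It differed by group, with -0.14 for the 5 urea cycle genes, -0.28 for the 9 of methionine and betaine, -0.23 for the 8 of aromatic amino acids and -0.01 for the 11 of other amino acids. The urea cycle median was -0.093 without wild type replicate 2 and -0.22 without wild type replicate 3. Without wild type replicate 1 the methionine and betaine median was -0.16, and that of the other amino acids changed sign with the array left out, from -0.038 to 0.051. The log2 fold change was below 0 in 22 of the 33 members, against 48.4% of all genes.

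**Figure D1:**
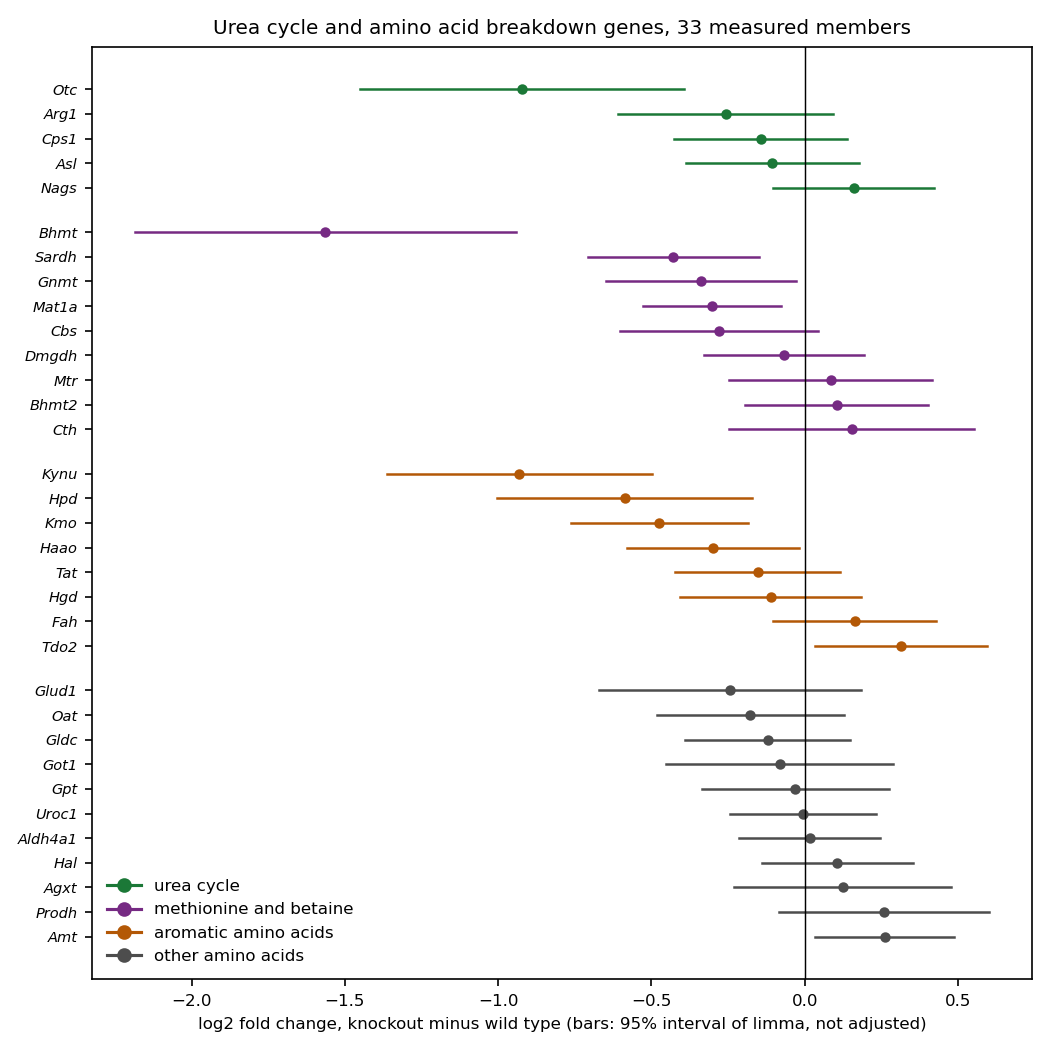
Difference between knockout and wild type liver (log2, knockout minus wild type, x axis) for each of the 33 measured members, coloured by group; bars are 95% intervals of the limma fit, not adjusted for the number of genes. Bhmt (-1.56), Kynu (-0.93) and Otc (-0.92) lie farthest to the left, and the genes of other amino acids lie around 0.

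Most members were dim on these arrays. Array medians over all probe sets ran from 1.36 to 1.43, and 26 members had a mean level under 2. As a reference for the floor, chosen after the values were seen, the 14 measured markers of intestine, pancreas and kidney had means from 1.01 to 1.72, and 19 members lay in or below that range. Among the 26 dim members, 7 read lower without overlap, against 3.71% of the 15282 genes with a mean under 2, and 6 had an unadjusted p under 0.05 on the lower side, against 1.71%. On the higher side 1 dim member had no overlap, against 7.27%, and 2 had an unadjusted p under 0.05, against 2.7%. The log2 fold change was below 0 in 16 of the 26, against 39.9%. These shares are not matched to the level of the dim members. The level bin just below a mean of 2 held 14 of the 26, but 3861 of the 15282 genes. The median log2 fold change of all genes was -0.01 in that bin and 0.05 in the dimmest bin. The shares thus rest mostly on still dimmer genes, so the excess of lower dim members may be overstated. The 7 brighter members were Otc, Bhmt, Cth, Hgd, Kynu, Glud1 and Oat. Kynu reached a mean of 2 only through its wild type arrays, with a knockout mean of 1.95, so the counts over these 7 are a description. Of these, 3 read lower without overlap, where 18.2% of the 4656 genes with a mean of at least 2 did. The same 3 had an unadjusted p under 0.05, against 22% on the lower side and 2.26% on the higher, 6 of 7 had a log2 fold change below 0, against 76.5%, and 0.0644% of genes of this level passed over all genes. Their median log2 fold change was -0.24, and that of all genes of this level was -0.19.

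In the urea cycle the largest difference, which did not pass, was that of Otc, which joins carbamoyl phosphate to ornithine in the mitochondrion. Otc read 3.10, 2.56 and 2.35 in the knockout arrays, given here and below in the order of replicates 1, 2 and 3, and 3.19, 3.83 and 3.76 in the wild type arrays. All 3 knockout arrays lay below the wild type arrays, and knockout replicate 1 lay close to wild type replicate 1. The means were 2.67 ± 0.38 and 3.59 ± 0.35 (SD, n = 3 each), which is 1.90-fold lower in knockout liver. Its log2 fold change of -0.92 had a standard error of 0.23 (limma adjusted p = 0.299), and Otc did not pass.

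The other 4 measured urea cycle genes were dim, and of these only Asl had a mean above the range of the floor reference. Cps1, which makes carbamoyl phosphate from ammonia, read 1.09, 1.12 and 1.02 in the knockout arrays and 1.14, 1.44 and 1.07 in the wild type arrays. Its levels lay below the array medians in 5 of the 6 arrays, wild type replicate 2 being the exception, near the floor of the measurement. Nags, which makes the activator of Cps1, read 1.22, 1.47 and 1.43 against 1.11, 1.22 and 1.32. Its groups overlapped. Asl, which splits argininosuccinate, read 1.84, 1.51 and 1.80 in knockout and 1.91, 1.85 and 1.71 in wild type liver. Arg1, which releases urea from arginine, read 1.54, 1.52 and 1.65 against 2.15, 1.75 and 1.57. Only wild type replicate 1 stood clearly above the rest for Arg1, and the groups overlapped for Asl and Arg1. The log2 fold changes of these 4 genes ran from -0.26 (Arg1) to 0.16 (Nags), with adjusted p between 0.698 and 0.861 (limma).

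Bhmt, by its brightest probe set, had the largest difference of all members, though its 3 probe sets ran from -1.56 to -0.22 and their place in the genome was not checked. It encodes the liver enzyme that uses betaine to turn homocysteine back into methionine. The kept probe set read 3.28, 2.95 and 2.20 in the knockout arrays and 4.03, 4.50 and 4.58 in the wild type arrays. The groups stood well apart, and knockout replicate 3 was the lowest. The means were 2.81 ± 0.55 and 4.37 ± 0.30 (SD, n = 3 each), 2.96-fold lower in knockout liver. Its log2 fold change of -1.56 had a standard error of 0.27 and ranked 42nd of all genes by p (limma adjusted p = 0.181). With each array left out in turn it lay between -1.80 (without knockout replicate 1) and -1.26 (without knockout replicate 3). Its lowest adjusted p over all alternatives was 0.0525, without wild type replicate 1, and the highest was 0.671 (limma).

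Bhmt was the 1 member with more than 1 probe set, and its 3 probe sets did not give the same size of difference. The second brightest read 1.91, 1.60 and 1.50 in knockout and 2.53, 3.35 and 3.33 in wild type liver, a log2 fold change of -1.40 (limma adjusted p = 0.146 when used for Bhmt). The dimmest read 1.73, 1.49 and 1.78 against 1.89, 1.94 and 1.81, a log2 fold change of -0.22 (0.647). All 3 separated the groups, but the dimmest stood little above the array medians. The sources used here do not say which part of the transcript each probe set covers. The dimmest probe set, 10411142, has a number near that of Bhmt2 (10411147), the next protein-coding gene. The kept probe set (10457114) and the second brightest (10511886) do not. Whether the numbers follow the genome was not checked. It could not be checked whether each lies in Bhmt itself or in another copy of its sequence, so the size of the difference in Bhmt is uncertain.

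**Figure D2:**
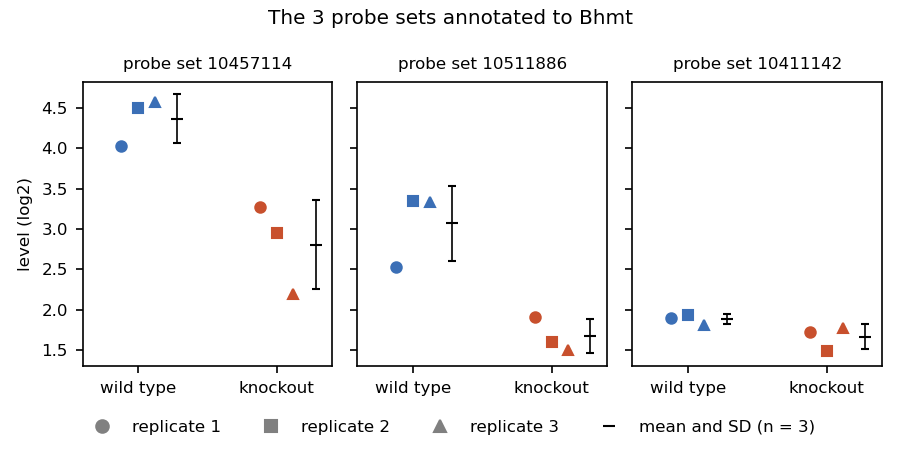
Levels (log2, y axis) of the 3 probe sets annotated to Bhmt in wild type (blue) and knockout (orange) liver; symbols mark replicates and bars the mean ± SD (n = 3). The 2 brighter probe sets differ by -1.56 and -1.40 between groups, and the dimmest by -0.22.

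Otc and Bhmt, the members of their groups with the largest differences, are shown with the bases before their start sites, together with Kmo, a gene of tryptophan breakdown described below, whose stretch was the only one among the members to hold the HNF4 core searched for. HNF4 is a transcription factor of hepatocytes. The sequences are the 250 bases before the start in the RefSeq promoter table of GRCm38.p6, 5′ to 3′ on the gene's strand, with motif matches in capitals. They come from chrX:10252055-10252304 (plus strand) for Otc, chr13:93637759-93638008 (minus strand) for Bhmt and chr1:175631943-175632192 (plus strand) for Kmo.
Otc: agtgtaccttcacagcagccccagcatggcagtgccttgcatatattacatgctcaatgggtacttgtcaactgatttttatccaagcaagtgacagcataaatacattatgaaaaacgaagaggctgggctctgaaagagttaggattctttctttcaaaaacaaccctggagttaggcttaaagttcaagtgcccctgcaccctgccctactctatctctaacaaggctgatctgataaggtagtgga
Bhmt: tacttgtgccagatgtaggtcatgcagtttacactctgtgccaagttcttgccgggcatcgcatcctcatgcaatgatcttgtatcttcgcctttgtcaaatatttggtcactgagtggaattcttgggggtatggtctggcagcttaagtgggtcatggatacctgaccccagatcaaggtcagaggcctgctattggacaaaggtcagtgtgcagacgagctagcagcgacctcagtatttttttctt
Kmo: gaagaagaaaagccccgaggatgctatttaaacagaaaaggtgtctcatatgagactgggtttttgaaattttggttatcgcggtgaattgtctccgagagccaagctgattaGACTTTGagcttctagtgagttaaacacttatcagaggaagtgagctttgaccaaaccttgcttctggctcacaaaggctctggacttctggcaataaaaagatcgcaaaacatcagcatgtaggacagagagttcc
Promoters of 26 of the measured members were matched by symbol. On either strand, the HNF4 core CAAAGTC was found in 1 of 26 (Kmo), as against 3.84% of all 32851 promoters, and the HNF1 site GTTAAT in 1 (Haao), against 6.43%. The C/EBP motif TTGCNNAA was found in 2 (Hal and Hgd), against 9.56%, the TATA box TATAAA in 3, against 12.4%, and the GC box GGGCGG in 10, or 38.5%, against 32.7%. The stretches of Otc and Bhmt held none of these exact strings of letters. Other forms of the sites were not searched for, so a site of these factors may still be present.

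Around the methyl group cycle, 4 more members read lower in all 3 knockout arrays. Mat1a, the liver enzyme that makes S-adenosylmethionine, read 1.26, 1.36 and 1.35 in knockout and 1.71, 1.57 and 1.59 in wild type liver. Gnmt, which spends S-adenosylmethionine on glycine, read 1.55, 1.57 and 1.43 against 1.97, 1.59 and 2.01. Sardh, which removes the methyl group from the sarcosine that Gnmt makes, read 1.35, 1.48 and 1.61 against 2.01, 1.74 and 1.97. The groups were separate for all 3 genes, and for Gnmt they all but touched at wild type replicate 2. Cbs, the first enzyme of the route from homocysteine to cysteine, read 1.70, 1.70 and 1.41 against 2.12, 1.77 and 1.76. Log2 fold changes were -0.30 for Mat1a, -0.34 for Gnmt, -0.43 for Sardh and -0.28 for Cbs, with limma adjusted p of 0.41, 0.517, 0.356 and 0.624. These are differences of dim probe sets, all with wild type means under 2.

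The remaining members of this group overlapped between genotypes. Cth, which finishes the route to cysteine, had a knockout mean of 2.19 ± 0.33 and a wild type mean of 2.03 ± 0.15 (SD, n = 3 each). Bhmt2, a close relative of Bhmt that uses S-methylmethionine, had 1.49 ± 0.20 against 1.39 ± 0.11. Dmgdh, which acts on the dimethylglycine that Bhmt releases, had 1.68 ± 0.16 against 1.75 ± 0.04, and Mtr, the folate-dependent methionine synthase, 1.80 ± 0.23 against 1.71 ± 0.15. The 95% interval of the log2 fold change was -0.19 to 0.40 for Bhmt2 and -0.33 to 0.19 for Dmgdh, while that of Bhmt was -2.18 to -0.94 (limma, not adjusted).

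In tryptophan breakdown by the kynurenine route, 3 members read lower and 1 higher in knockout liver, and none passed over all genes. Kynu, kynureninase, cleaves kynurenine and its hydroxylated form. It read 2.14, 1.85 and 1.85 in the knockout arrays and 2.48, 3.21 and 2.95 in the wild type arrays. The groups did not overlap, and wild type replicate 1 was the lowest of its group. Means were 1.95 ± 0.17 and 2.88 ± 0.37 (SD, n = 3 each), 1.91-fold lower in knockout liver, with a log2 fold change of -0.93 ± 0.19 (standard error) (limma adjusted p = 0.202). Kynu was the only member to pass in any alternative: without wild type replicate 1 its log2 fold change was -1.13 and its adjusted p 0.0399, where 95 of all genes passed, or 0.476%. Over its alternatives the adjusted p ran from 0.0399 to 0.694.

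The enzymes on both sides of Kynu also read lower in knockout liver without passing, and their knockout means of 1.53 (Kmo) and 1.36 (Haao) lay within the range of the floor reference, which limits the difference that can be measured. Kmo, which hydroxylates kynurenine, read 1.62, 1.53 and 1.43 against 1.78, 2.14 and 2.08, with a log2 fold change of -0.47 ± 0.13 (standard error) (limma adjusted p = 0.326). Haao, the dioxygenase that acts after Kynu on the way to NAD, read 1.38, 1.42 and 1.28 against 1.47, 1.65 and 1.85, a log2 fold change of -0.30 (limma adjusted p = 0.528). For both genes the groups were separate. Tdo2, the first enzyme of the route in liver, went the other way and stood near the floor, with 1.28, 1.55 and 1.54 in knockout and 1.29, 1.06 and 1.09 in wild type liver. Knockout replicate 1 lay just below wild type replicate 1, so its groups overlapped, and its log2 fold change was 0.31 (limma adjusted p = 0.506).

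No tyrosine enzyme passed over all genes, and the member with the smallest p among them was Hpd. Hpd, which oxidises hydroxyphenylpyruvate, read 1.75, 1.57 and 1.38 in the knockout arrays and 2.33, 1.76 and 2.37 in the wild type arrays. Knockout replicate 1 and wild type replicate 2 almost met, while the other 2 wild type arrays stood above them. Its log2 fold change of -0.59 had a standard error of 0.18 (limma adjusted p = 0.396). Tat, which starts tyrosine breakdown and is known to be switched on around birth, had 1.13 ± 0.11 against 1.28 ± 0.15, below the array medians on average. Hgd, the next enzyme after Hpd, had 2.28 ± 0.13 against 2.39 ± 0.18, and Fah, the last one, 1.90 ± 0.17 against 1.73 ± 0.03 (SD, n = 3 each). The 95% intervals were -0.41 to 0.18 for Hgd and -0.10 to 0.43 for Fah (limma, not adjusted), and the groups overlapped for all 3.

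**Figure D3:**
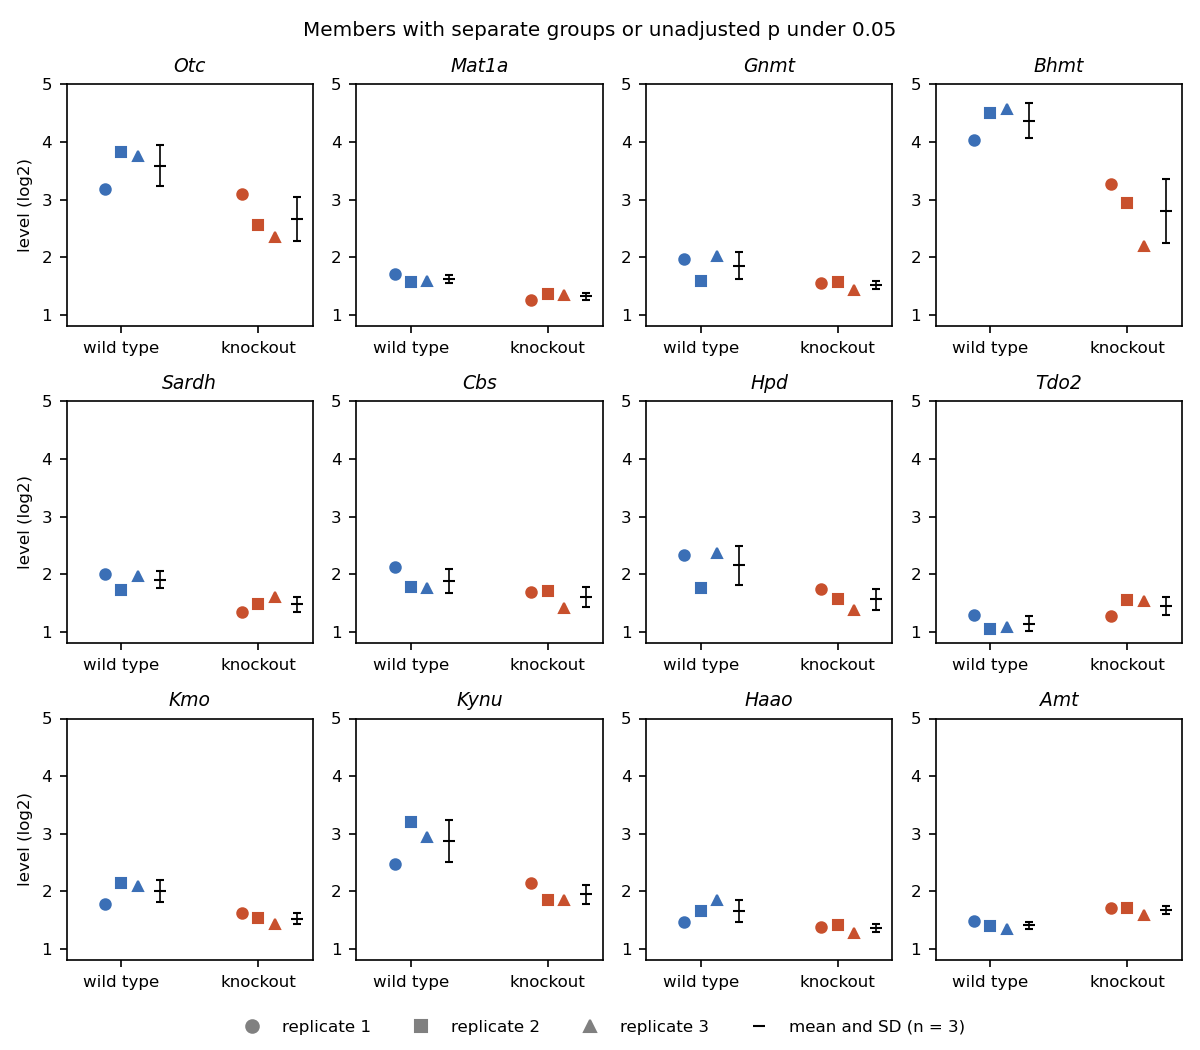
Levels (log2, y axis, same range in every panel) per array of the 12 members whose groups did not overlap or whose unadjusted p was under 0.05; blue is wild type, orange knockout, symbols mark replicates and bars the mean ± SD (n = 3). Bhmt, Otc and Kynu stand above the floor in wild type liver, while most other panels lie between 1 and 2.4.

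Genes for the breakdown of the other amino acids had small differences in both directions, and 0 of 11 passed over all genes (limma). Glud1, glutamate dehydrogenase, which releases ammonia from glutamate, read 6.10, 5.96 and 5.98 in knockout and 5.83, 6.35 and 6.60 in wild type liver. The knockout arrays lay inside the wild type range, and its log2 fold change of -0.24 had a standard error of 0.19 (limma adjusted p = 0.772). It was -0.46 without wild type replicate 1, -0.075 without wild type replicate 3 and -0.077 after renewed quantile normalization. Oat, ornithine aminotransferase, had 2.33 ± 0.15 against 2.51 ± 0.19 (SD, n = 3 each), with a 95% interval of -0.48 to 0.13. Amt, the aminomethyltransferase of the glycine cleavage system, was the 1 member whose knockout arrays all lay above the wild type arrays, with 1.71, 1.71 and 1.59 against 1.48, 1.39 and 1.35. Its log2 fold change was 0.26 (limma adjusted p = 0.487), and Gldc, the decarboxylase of the same system, had -0.12. The transaminase genes Got1 and Gpt, Hal and Uroc1 of histidine breakdown, Prodh and Aldh4a1 of proline breakdown and Agxt, which acts on glyoxylate, overlapped between groups, with log2 fold changes from -0.08 (Got1) to 0.26 (Prodh).

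Mean levels of each group of enzymes were also taken per array. Over the 5 urea cycle genes the mean level was 1.75, 1.63 and 1.65 in knockout and 1.90, 2.02 and 1.89 in wild type liver. For methionine and betaine it was 1.80, 1.80 and 1.69 against 2.06, 1.98 and 2.14, and for aromatic amino acids 1.70, 1.64 and 1.59 against 1.86, 1.89 and 1.96. In these 3 groups every knockout array lay below every wild type array, but for the urea cycle this rested on Otc. Without Otc the mean over the other 4 genes was 1.42, 1.40 and 1.48 against 1.57, 1.57 and 1.42, and the groups overlapped. Without Bhmt the methionine and betaine mean was 1.62, 1.66 and 1.63 against 1.82, 1.66 and 1.83, where knockout and wild type replicates 2 all but met, and without Kynu the aromatic mean was 1.64, 1.61 and 1.56 against 1.78, 1.70 and 1.82. For the other amino acids the values were 1.97, 1.95 and 1.83 against 1.82, 1.94 and 1.96, and the groups overlapped. Knockout replicate 3 was the lowest array in 14 of the 33 members.

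**Figure D4:**
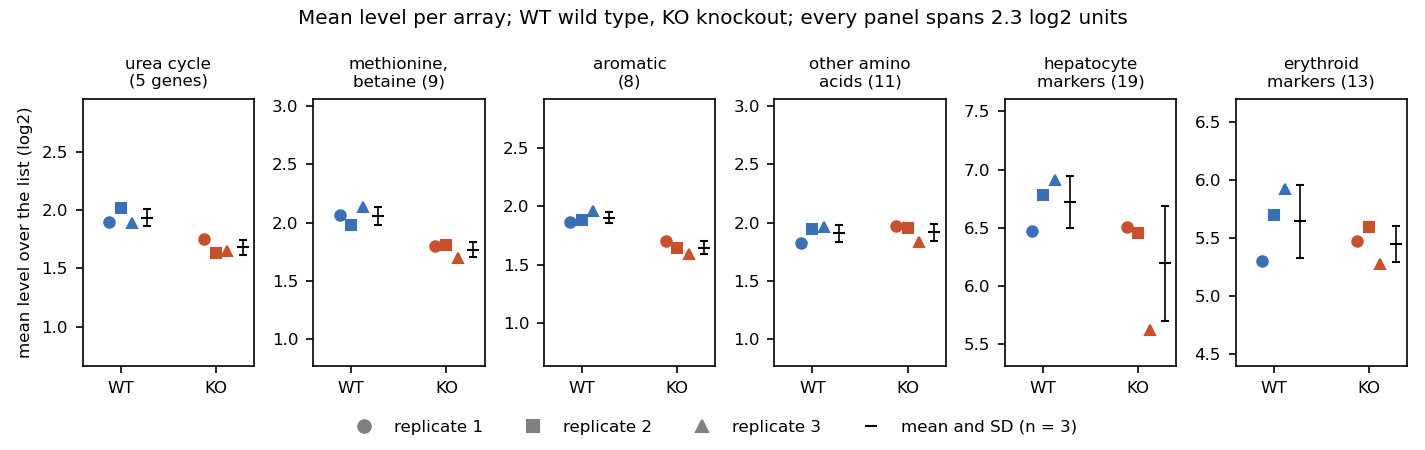
Mean level per array (log2, y axis; each panel spans the same number of log2 units) over the 4 groups of members and over the hepatocyte and erythroid markers; symbols mark replicates and bars the mean ± SD (n = 3). The groups separate for the urea cycle (through Otc alone), for methionine and betaine and for aromatic amino acids, and overlap for the other amino acids and for both marker lists.

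Most hepatocyte markers also read lower in knockout liver. Their median log2 fold change was -0.64, where that of all genes with a mean of at least 2 was -0.19. Most of the markers were brighter, with means above 4, and the median of all genes with a mean of 4 to 7 was -0.27. The shares given here for a mean of at least 2 are thus not matched to the markers' level. The log2 fold change was below 0 in 17 markers and above 0 in 2, against 76.5% of genes with a mean of at least 2 below 0. In 5 markers the knockout arrays lay below the wild type arrays without overlap, against 18.2%, and in 0 above, against 2.45%. Of 20 markers 19 were measured and 0 passed over all genes (limma), with 7 lower and 0 higher at an unadjusted p under 0.05. Of the 19, 18 had a mean of at least 2, a level at which 22% of all genes were lower and 2.26% higher by this p. Their mean level was 6.51, 6.45 and 5.62 in the knockout arrays and 6.47, 6.78 and 6.91 in the wild type arrays, so that knockout replicate 3 stood lowest and knockout replicate 1 lay above wild type replicate 1. The summed linear level ran from 3029 to 4869 in knockout and from 4426 to 5575 in wild type liver, and Afp, Alb and Apoa2, the brightest of them, read at least 7.86 in every array. None was at 0. The part of the markers in the members' values was not tested. Without knockout replicate 3, the log2 fold change was -0.76 for Otc, -0.88 for Kynu and -0.42 for Kmo, and the median over the members was -0.12.

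Set beside the hepatocyte markers array by array, the members overlapped between genotypes. The mean over the members minus that over the hepatocyte markers was -4.68, -4.67 and -3.91 in knockout and -4.56, -4.83 and -4.91 in wild type liver, with overlap. Its group means were -4.42 and -4.77. Most members stood close to the floor, which limits how far they can fall along with bright markers. For the 7 brighter members the difference was -3.38, -3.60 and -2.92 against -3.26, -3.26 and -3.35, group means of -3.30 and -3.29. Here knockout replicates 1 and 2 lay below every wild type array. Knockout replicate 3, the lowest array in the hepatocyte markers, lay above every wild type array, so the near-equal group means rest on it. The part of the markers in these values was not tested.

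Other cell types were followed by their markers. The 13 measured erythroid markers had a mean level of 5.28 to 5.59 in knockout and 5.31 to 5.93 in wild type liver, and summed linear levels of 899 to 1176 and 962 to 1385. Of these 13, 11 had a log2 fold change below 0, among them Tfrc (-0.67) and Hemgn (-0.25), and the embryonic globin genes Hba-x (1.34) and Hbb-y (1.45) were above 0. At an unadjusted p under 0.05, 6 were lower and 2 higher, and 0 passed over all genes (limma). The summed level of the 12 macrophage markers was 40.9 to 55.4 against 50.1 to 71.7, that of the 12 endothelial markers 43.6 to 47.7 against 40.9 to 43.1, that of the 10 stellate and mesenchymal markers 50.1 to 65.3 against 45.3 to 68.8 and that of the 5 megakaryocyte markers 249 to 394 against 408 to 506. By mean log2 level the megakaryocyte markers overlapped, with 3.76 to 4.15 in knockout and 4.07 to 4.30 in wild type liver. Of these 5, 3 had a log2 fold change below 0 and 2 above, and Ppbp, the brightest, had -0.72. The 9 neutrophil markers summed to 85.6 to 229 against 101 to 128, and the 5 biliary markers to 12.4 to 14.0 against 11.6 to 12.7. No marker of any list passed over all genes (limma), and the part of these cell types in the members' values was not tested.

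Transcription factors of hepatocytes showed small differences. Of 13 measured factors 0 had an unadjusted p under 0.05, and the median log2 fold change was -0.01. Among the 4 with the smallest p, Foxa2, a forkhead factor of early liver, had 0.30 with its knockout arrays all above the wild type arrays. Foxa3 had -0.09, Ppargc1a, a coactivator of fasting metabolism, -0.25, and the nuclear receptor gene Nr5a2 0.10. Hnf4a had -0.11 and Cebpa 0.02, both named after their values were seen. Most of these genes were dim, with means from 1.40 to 2.17.

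Further genes of amino acid metabolism gave 11 lower and 0 higher at an unadjusted p under 0.05 among 72 measured genes of 5 lists, transcription factors included, and 0 passed over all genes (limma). The shares of all genes were 6.44% lower and 2.59% higher, and 22% lower for genes with a mean of at least 2, of which the lists hold 26. Among carriers and partners of the urea cycle, with a median log2 fold change of -0.24 over 12 genes, Gatm (-0.41) and Agmat (-0.42) had the smallest p, before Slc25a15 (-0.31), the mitochondrial ornithine carrier, and Gamt (-0.37). Gatm and Gamt make creatine, the former from arginine. Of the 15 genes of serine, glycine and one-carbon metabolism (median -0.18), Cdo1, the cysteine dioxygenase, had -0.47, Csad, which follows it towards taurine, -0.27, Pipox -0.33 and Mat2b -0.32. Cdo1 read 4.24, 4.14 and 4.11 in knockout and 4.35, 4.77 and 4.80 in wild type liver, without overlap. In branched chain and lysine breakdown (19 genes, median -0.16) Mmut, the mutase that uses vitamin B12, had -0.80, Auh -0.34, Bckdha -0.31 and Acadsb -0.44. Of the 13 further genes of aromatic, histidine and proline metabolism (median -0.09), Gstz1, which acts between Hgd and Fah, had -0.41, Qprt -0.46, Afmid -0.22 and Aldh18a1 0.23.

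The lower reading of bright genes in knockout liver was followed through another normalization. Genes with a mean of at least 3 had a median log2 fold change of -0.25 as deposited and of -0.06 after renewed quantile normalization. After that normalization Bhmt had -1.37, Kynu -0.82 and Otc -0.74, and 9 lower and 1 higher members had an unadjusted p under 0.05, against 4.66% and 3.05% of all genes, and 6 genes, no member among them, passed, or 0.0301%. The split of all genes with an unadjusted p under 0.05 was 1284 lower to 517 higher as deposited, 929 to 609 after renewed quantile normalization and 1507 to 299 after centring each array on its median. With 3 arrays a group, their number limits how precise each value is.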

How the data were processed

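Total RNA of 6 livers was extracted with Trizol, biotin-labelled from 6 ug and hybridised to 1 array each, per the labels' protocols. The deposited log2 values were made by the authors with RMA (background correction, normalization between arrays and probe set summary), a step that the submitters' processing notes name without a version. The log base was read from the range of the values, and the upper quantiles differ between arrays. Of 28853 probe sets, 21789 had 1 gene symbol in the platform annotation, 1621 several and 5443 none; the Entrez identifiers of all 33 measured members matched a RefSeq table of GRCm38.p6. The brightest probe set of each gene was kept, with no filter on dim genes.

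The fit of genotype alone used lmFit and eBayes of limma 3.58.1 under R 4.3.3, after it was tested on simulated data. Its two-sided p-values were adjusted over 19938 genes by Benjamini and Hochberg. The members and lists were chosen with earlier results of these data known, so no test over a list is given. Per-array values are given for the urea cycle genes, for members with separate groups or an unadjusted p under 0.05 and for the highest member of each group. The 4 genes of smallest p are named from each further list. The markers named are the brightest, apart from Hba-x, which was named after its value was seen. Alternatives were a replicate block, single arrays left out, quantile normalization run again, centring, averaged probe sets, genes of a mean of at least 2 alone, robust fitting with an intensity trend and a threshold of 0.1; the other probe sets of Bhmt were added after the data were seen. Array pairs correlated at 0.974 to 0.990 over all probe sets, and no array was a copy of another.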

Additional observations from a re-analysis of the deposited data

How the results depend on the processing

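No member passed under any alternative except Kynu without wild type replicate 1, so that the count of members past the threshold ran from 0 to 1 when single arrays were left out. The count over all genes was 3 as deposited, 6 after renewed quantile normalization, 0 with the replicate number as a block and 0 to 95 when single arrays were left out. With that block no member passed. The log2 fold changes cannot differ with it, since each replicate number holds 1 knockout and 1 wild type array. Deviations from the group means of same-numbered arrays correlated at 0.107, 0.0566 and -0.105. Those of arrays with different numbers correlated at -0.191 to 0.186, so same-numbered arrays were not more alike. Whether the numbers pair the samples cannot be told from so few arrays. With genes of a mean of at least 2 only, the 7 members left had a median of -0.24, in place of -0.11 for all 33. Their mean level differed by -0.54, in place of -0.18. The 26 members left out had a median of -0.07. Of 372 values of members under the alternatives, 15 had another sign than the main value, all in 8 members near 0. Many of the 372 could not change. The replicate block, the intensity trend with robust fitting and the filter on the mean leave each log2 fold change as it was. Averaging probe sets changes that of Bhmt alone among the members. When single arrays were left out, the log2 fold change ran from -0.046 to 0.18 for Mtr, -0.011 to 0.17 for Bhmt2, -0.034 to 0.29 for Cth, -0.068 to 0.041 for Uroc1, -0.19 to 0.10 for Got1, -0.11 to 0.069 for Gpt, -0.038 to 0.051 for Aldh4a1 and -0.038 to 0.21 for Agxt. Aldh4a1 also had -0.019 after renewed quantile normalization and -0.020 after centring; the cause was not tested. The median of the urea cycle group, -0.14, was -0.093 without wild type replicate 2, -0.22 without wild type replicate 3 and -0.92, that of Otc alone, for genes with a mean of at least 2; at this level the 2 genes left in the methionine and betaine group had -0.71, the 2 of aromatic amino acids -0.52 and the 2 of other amino acids -0.21. Without wild type replicate 1 the median of the methionine and betaine group was -0.16 in place of -0.28. For the 26 members with a mean under 2, signal close to the floor limits how large a difference can be measured.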

Other observations

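The enzymes of Bhmt and Dmgdh act on neighbouring steps of betaine metabolism. Bhmt, Bhmt2 and Dmgdh follow each other directly in the order of protein-coding genes of the RefSeq table. Their log2 fold changes were -1.56 (brightest probe set), 0.10 and -0.07. The 3 probe sets annotated to Bhmt gave -1.56, -1.40 and -0.22, and it could not be checked whether each lies in Bhmt itself or in another copy of its sequence. The dimmest of them, at -0.22 with a standard error of 0.11, does not stand apart from Dmgdh, and the difference between the genes was not tested.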
